A study of Mus musculus with 22 samples.

Results

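The measurement described here is a difference between 2 losses in mouse embryonic stem cells: loss of Ythdc1, a protein that reads the RNA mark N6-methyladenosine (m6A), and loss of Mettl3, the enzyme that writes it. It was read from 12 of the 22 libraries of ribosome-depleted total RNA in the series, chosen by their labels. The Ythdc1 set held 4 libraries labelled Ythdc1-cKO.4OHT and 4 labelled Ythdc1-cKO.DMSO. These cells carry a conditional Ythdc1 allele and were treated with 4-hydroxytamoxifen (4OHT), the drug used to switch on a tamoxifen-dependent Cre recombinase, or with its solvent DMSO. The titles name 2 embryonic stem cell lines with 2 libraries of each treatment, but the count columns do not carry the line. The Mettl3 set held 2 libraries labelled Mettl3.KO and 2 labelled Mettl3.WT, with no treatment and no clone named. All cells were male lines of 129 background grown without feeders in serum and LIF, per the labels. No label says whether replicates were separate cultures, so a p-value here speaks only of how far these libraries spread.

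The m6A mark is placed on adenosines of nascent RNA by a complex whose catalytic subunit is METTL3, with METTL14 as its partner and WTAP, VIRMA, RBM15, CBLL1 and ZC3H13 as further subunits. YTHDC1 is the reader of the YTH family that sits in the nucleus, where it is known to act in splicing, export and turnover of marked RNA and in silencing of retroelements in stem cells. The YTHDF proteins read the same mark in the cytoplasm, where they are known for destabilising marked mRNA. Loss of the writer withholds the mark from every reader, whereas loss of YTHDC1 leaves the mark in place.

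The reader effect is the log2 fold change of 4OHT over DMSO, and the writer effect is the log2 fold change of Mettl3 KO over WT. The difference of effects is the reader effect minus the writer effect, tested as 1 contrast in a single edgeR quasi-likelihood fit of the 12 libraries with 4 group means. An entry passed at a Benjamini-Hochberg adjusted p under 0.05 over the 28260 entries tested, which were 27215 genes and 1045 repeat families. Values after ± are standard errors of log2 fold changes, and levels are CPM (counts scaled to 1e6 per library), adjusted by the trimmed mean of M values (TMM). An entry was called shared where both effects passed in 1 direction, and opposite where both passed in different directions. It was called reader-only or writer-only where that effect and the difference of effects passed and the other effect did not.

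Library totals, in units of 1e6 counts, were 32.2 to 51.4 in the Ythdc1 set and 25.0 to 28.7 in the Mettl3 set. Line, treatment and depth differ together between the sets and cannot be told apart in the levels; each effect was taken within its own set. Within the Ythdc1 set, loss of Ythdc1 and exposure to 4OHT go together. No cells without the conditional allele were treated with 4OHT in this series. Loss and drug therefore cannot be told apart in the reader effect, in the difference or in the classes. Where the text says reader loss, it means both. Fewer cells with a transcript and less transcript per cell cannot be told apart in these bulk libraries. The 8 stem cell markers summed to 1687 to 1912 CPM under DMSO, 1140 to 1412 under 4OHT, 1594 to 1601 in WT and 1187 to 1194 in KO, so the summed level was lower in each treated or knockout group than in its own controls. Not every marker fell: 4 of the 8 passed as lower with the reader effect. With the writer effect 4 passed as lower and 1 as higher. Primitive endoderm markers summed to 9.75 to 13.5 CPM under DMSO and 15.0 to 22.9 under 4OHT, against 6.30 to 6.52 in WT and 6.90 to 7.64 in KO. The corresponding sums for trophectoderm markers were 21.7 to 31.7, 26.1 to 40.9, 5.52 to 6.80 and 12.1 to 15.9 CPM, with Elf5 and Plac1 under 1 CPM in every library. Neural markers summed to 41.8 to 58.1, 54.2 to 61.0, 54.2 to 57.1 and 19.6 to 22.9 CPM, with Dcx under 1. Fibroblast markers summed to 14.9 to 19.3, 9.50 to 15.2, 42.2 to 45.3 and 17.2 to 35.0 CPM, with Lum, Dcn and Postn under 1. Of 6 primitive endoderm markers, 5 rose with the reader effect and 1 with the writer effect. Of 5 trophectoderm markers tested, 1 rose and 1 fell with the reader effect, and 2 rose and 1 fell with the writer effect. Shares over all entries were 21.4% higher and 19.3% lower for the reader effect and 12.6% and 14.7% for the writer effect. The part of these cell types in the results was not tested.

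Ythdc1 itself (ENSMUSG00000035851, chromosome 5, 86804221 to 86836659, mm10) was at 79.7, 70.6, 74.5 and 78.7 CPM in the DMSO libraries and at 64.3, 49.8, 62.0 and 52.5 CPM after 4OHT. Its reader effect was -0.41 ± 0.08 (adjusted p = 0.000315). These counts cover the whole gene, so exons outside the deleted part are included. In the Mettl3 set Ythdc1 was at 82.6 and 84.7 CPM in WT and 135 and 152 CPM in KO, a writer effect of 0.78 ± 0.11 (adjusted p = 2.61e-05). Mettl3 (ENSMUSG00000022160, chromosome 14, 52294841 to 52305128, minus strand) was at 29.3 and 30.3 CPM in WT and at 14.4 and 28.1 CPM in KO, and its writer effect did not pass (-0.49 ± 0.19, adjusted p = 0.0653). The transcript level therefore does not check the label of the second KO library, and the writer effect is that of the libraries labelled Mettl3 KO.

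Both libraries labelled Mettl3 KO stood apart from the other 10 along 2 whole chromosomes. The median writer effect was -0.53 over 917 genes of chromosome 6 and -0.59 over 968 genes of chromosome 8, counting genes with a mean of at least 1 CPM. On the other 17 autosomes it ran from -0.11 to 0.04. The reader effect had medians of -0.04 on chromosome 6 and -0.05 on chromosome 8, inside its range of -0.11 to -0.00 on those 17 autosomes. Library by library, relative to the median autosome, genes of chromosome 6 were at -0.53 and -0.48 on the log2 scale in the KO libraries and between 0.00 and 0.04 in the other 10 libraries. For chromosome 8 these values were -0.51 and -0.50 in KO and 0.01 to 0.06 elsewhere. The shift ran along both chromosomes: over 4 consecutive blocks of its genes the median writer effect was -0.52, -0.56, -0.52 and -0.53 on chromosome 6 and -0.54, -0.70, -0.67 and -0.46 on chromosome 8. DNA copy number was not measured in these libraries. The X chromosome had medians of 0.21 for the writer effect and -0.15 for the reader effect, and Kdm5d on the Y chromosome was at 1.02 and 0.677 CPM in WT and 26.3 and 21.7 CPM in KO. Over 10 genes of the Y chromosome the median writer effect was 0.75, with 60% called higher and 10% lower. Its 4 genes with a mean of at least 5 CPM were at 0.03 and -0.04 in WT, relative to the median autosome. In KO they were at 0.21 and 0.23.

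**Figure D1:**
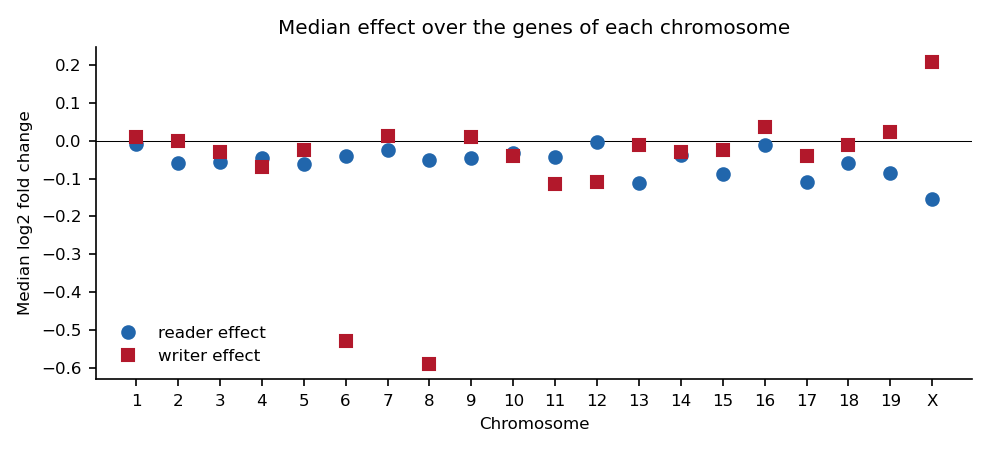
Median log2 fold change over the genes of each chromosome (at least 1 CPM on average), for the reader effect (circles, 4 libraries against 4) and the writer effect (squares, 2 against 2). Chromosomes 6 and 8 lie at -0.53 and -0.59 in the writer effect and near 0 in the reader effect.

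Of all entries tested, 40.7% passed for the reader effect (21.4% higher and 19.3% lower), 27.3% for the writer effect (12.6% higher and 14.7% lower) and 25.3% for the difference (13.7% higher and 11.6% lower). Shared entries numbered 3227, which is 28.1% of the reader calls and 41.9% of the writer calls. They split into 1402 that rose in both (4.96% of entries) and 1825 that fell in both (6.46%). Opposite entries numbered 1292: 642 higher after reader loss and lower after writer loss (2.27%), and 650 the other way (2.30%). Reader-only entries were 1527 higher (5.40%) and 1223 lower (4.33%). Writer-only entries were 975 higher (3.45%) and 1094 lower (3.87%). A further 5351 entries passed for 1 effect while neither the other effect nor the difference passed, and these cannot be placed: 4234 had the reader effect and 1117 the writer effect. Among the shared entries the size still differed, with a passing difference of effects in 293 that rose and 462 that fell.

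The balance of higher and lower differences turned with some settings: 3454 against 3592 with the authors' factors, 2837 against 2949 with Ythdc1 libraries 1 and 2 only, 2856 against 2957 with libraries 3 and 4 only, and 3481 against 3487 at a mean of at least 1 CPM. The counts also moved with the Mettl3 controls. Leaving out WT replicate 1 took the higher differences from 3874 to 2543, the writer calls from 7705 to 4919, the opposite entries from 1292 to 839 and the writer-only entries from 2069 to 1363. Without WT replicate 2 the first 3 of these counts were 2579, 4993 and 853. Each such fit holds 1 WT library and assumes that it varies like the other groups. Of the 1089 writer-only lower genes, 355 (32.6%) lay on chromosome 6 or 8, against 10.3% of all genes tested. The share was 31.2% of the genes higher after reader loss and lower after writer loss, 20.7% of those lower in both and 3.31% of the writer-only higher genes. With the genes of both chromosomes left out before the fit, 12.9% of 25451 entries had a higher and 11.4% a lower difference, and the writer-only lower class held 848 entries. A fixed size was also asked of each class: at least 2-fold in each effect that was called, with the 95% interval of the other effect inside 2-fold for the one-sided classes. That left 514 entries shared higher (1.82% of all tested) and 150 shared lower (0.531%), and 89 (0.315%) and 75 (0.265%) in the opposite classes. Reader-only entries of this size were 270 higher (0.955%) and 193 lower (0.683%), and writer-only entries 338 higher (1.2%) and 331 lower (1.17%). An interval inside 1.5-fold lowered the reader-only total from 463 to 154 and the writer-only total from 669 to 404.

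**Figure D2:**
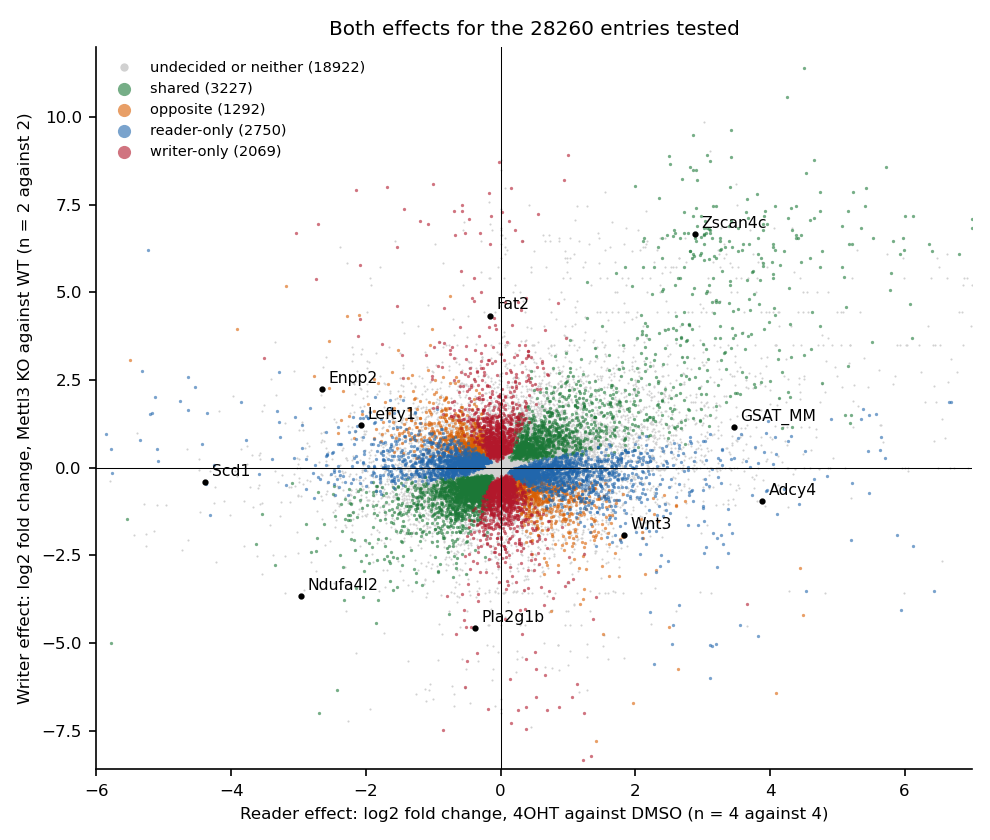
Reader effect (horizontal) against writer effect (vertical), both as log2 fold changes, for the entries tested, coloured by class; 39 entries with a reader effect beyond the axis are not drawn. Zscan4c lies high on both axes, Scd1 far left near a writer effect of 0, and Fat2 and Pla2g1b far up and far down near a reader effect of 0.

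Genes of the two-cell-like state, a rare state in which stem cells express genes of the cleavage embryo, rose in both. Of 34 members tested, 32 rose with the reader effect, 26 with the writer effect and 26 with both. The shares over all entries were 21.4%, 12.6% and 4.96%, in the same order. The list was assembled with earlier results of these data known, so its direction is not independent evidence. Zscan4c, a gene of the cleavage embryo known for telomere maintenance (ENSMUSG00000054272, chromosome 7, 11005745 to 11010547), was at 11.8, 5.03, 3.41 and 4.67 CPM under DMSO and at 66.1, 47.6, 32.1 and 38.4 CPM after 4OHT. It was at 0.469 and 0.203 CPM in WT and at 31.7 and 35.3 CPM in KO. Both treated groups lay above all of their controls and overlapped in level, while the control level was lower in WT than under DMSO. The reader effect was 2.88 ± 0.28, the writer effect 6.66 ± 0.61 and the difference -3.78 ± 0.73 (adjusted p = 0.0007). Zscan4f moved alike (2.97 ± 0.26 and 6.57 ± 0.57), and Zscan4d had effects of 3.39 and 6.89; its difference of -3.50 (adjusted p = 0.00546) no longer passed without WT replicate 2 (adjusted p = 0.0635). Duxf3, a copy of the homeobox factor gene Dux that switches on this programme, had effects of 2.30 ± 0.43 and 2.59 ± 0.69. The deubiquitinase family members Usp17lc and Usp17la rose by 3.42 and 3.40 after reader loss and by 3.42 and 5.32 in KO. Reads of these multicopy genes can fall on near-identical copies, so the share of each copy is uncertain.

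The median of this list was 3.05 for the reader effect and 5.36 for the writer effect, against 0.02 and -0.01 over all entries. In 10 members the WT or KO libraries held no count. With these set to the bound that 3 counts over the group allow, the writer median was 4.66 and the median difference -1.73. The difference passed as lower in 13 members and as higher in 1, and as lower in 6 without WT replicate 1 and in 5 without WT replicate 2. MERVL-int, the internal part of the retrovirus expressed in this state, was at 726, 598, 577 and 567 CPM under DMSO, and at 2671, 1859, 1497 and 1714 CPM after 4OHT. It was at 307 and 317 CPM in WT and at 598 and 633 CPM in KO, so the KO level stood within the range of the DMSO libraries. Its reader effect of 1.65 ± 0.12 exceeded its writer effect of 0.98 ± 0.17 by 0.67 ± 0.21 (adjusted p = 0.0244), the reverse order to the Zscan4 genes. That difference no longer passed in 6 of the 12 fits that left out 1 library, with adjusted p from 0.0507 to 0.1, nor under the DESeq2 Wald test (adjusted p = 0.132).

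The shared higher genes with the largest smaller effect, among those named by rule, also included genes outside that state. Chrm3, a muscarinic acetylcholine receptor, had effects of 3.99 ± 0.57 and 4.14 ± 1.20, and Lrp1b, an endocytic receptor, had 3.72 ± 0.44 and 3.82 ± 0.83. Their control levels were at or under 0.48 CPM in every library. Vmn1r46, a vomeronasal receptor gene on chromosome 6, rose from a mean of 0.0376 to 0.874 CPM after 4OHT and held no count in WT against 10.8 and 7.30 CPM in KO, which is at least 167-fold higher against 3 counts over the group.

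Glycolysis and hypoxia-response genes fell in both. Of 26 members, 23 fell with the reader effect, 19 with the writer effect and 19 with both. The shares over all entries were 19.3%, 14.7% and 6.46%, in the same order. None rose in either. Medians were -0.69 and -1.17. With chromosomes 6 and 8 left out, 17 and 14 of 20 members fell. Ldha, lactate dehydrogenase A (ENSMUSG00000063229, chromosome 7, 46841475 to 46855627), was at 438, 429, 540 and 449 CPM under DMSO and at 153, 202, 163 and 143 after 4OHT. It was at 650 and 681 CPM in WT and at 161 and 211 in KO. The 2 losses brought it to overlapping levels. Its effects were -1.49 ± 0.10 and -1.84 ± 0.14, with a difference of 0.35 ± 0.17 (adjusted p = 0.148); the replicate block (adjusted p = 0.0461) and leaving out KO replicate 2 (adjusted p = 0.0351) made it pass. Aldoa, aldolase A, had effects of -1.29 ± 0.11 and -1.34 ± 0.15, and Pgk1, phosphoglycerate kinase, -1.24 ± 0.12 and -1.14 ± 0.17.

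Other members fell further in KO. Slc2a1, the glucose transporter GLUT1, fell by 0.49 on the log2 scale after 4OHT and by 1.33 in KO (difference 0.84 ± 0.16, adjusted p = 0.000535). Pdk1, the kinase that restrains pyruvate dehydrogenase, fell by 0.25 and by 1.16 (difference 0.91 ± 0.14, adjusted p = 6.27e-05). Pfkp, platelet phosphofructokinase, fell by 1.59 and by 2.56; its difference of 0.97 ± 0.28 (adjusted p = 0.0144) did not pass without WT replicate 2 (adjusted p = 0.0611) or KO replicate 1 (adjusted p = 0.105), under the DESeq2 Wald test (0.0727) or with Ythdc1 libraries 3 and 4 only (0.0866). Ndufa4l2, a hypoxia-inducible mitochondrial protein, led the shared lower genes by size: 2.20, 3.66, 7.66 and 2.59 CPM under DMSO became 0.803, 0.349, 0.595 and 0.252 after 4OHT, and 10.2 and 10.1 in WT became 0.488 and 1.11 in KO. The 8 passing higher differences in this list against 3 lower ones describe members whose fall was smaller after reader loss. Of all entries, 13.7% had a higher and 11.6% a lower difference.

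Promoters of this list were searched because its members fell together; the motifs were chosen after the values were seen. The core of the hypoxia response element, ACGTG, was sought on both strands in the 250 bases before the start site (RefSeq, GRCm38.p6), where 24 of 26 members had an entry. It was present in 14 of the 24, and in 18.5% of all 27025 genes with an entry. The longer form ACGTGC was present in 9 of the 24 and in 5.63% of all genes, and GCGTG in 16 of the 24 and in 30.9%. A gene, in the list or not, counted as having a motif where any of its start sites had it. Ldha and Pgk1, 2 members that fell in both, are shown, each at the start site with the most matches to ACGTG. Matches on either strand are in capitals.
Ldha: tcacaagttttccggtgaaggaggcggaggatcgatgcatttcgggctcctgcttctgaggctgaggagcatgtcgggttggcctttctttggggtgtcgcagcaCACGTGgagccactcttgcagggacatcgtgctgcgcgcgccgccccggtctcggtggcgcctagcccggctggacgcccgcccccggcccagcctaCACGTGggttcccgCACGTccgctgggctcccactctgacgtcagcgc
Pgk1: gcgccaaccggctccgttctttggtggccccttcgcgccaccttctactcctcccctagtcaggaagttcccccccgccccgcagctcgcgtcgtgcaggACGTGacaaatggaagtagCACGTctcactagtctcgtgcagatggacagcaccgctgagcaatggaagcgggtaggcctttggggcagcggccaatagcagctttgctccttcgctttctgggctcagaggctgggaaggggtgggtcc
The Ldha sequence is chr7:46845554-46845803 and the Pgk1 sequence chrX:106186850-106187099, both plus strand of GRCm38.p6. The Ldha stretch lies inside the gene span given above. A match is a description of the letters and no evidence that a factor binds there.

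The other shared lower genes named by rule were of mixed function. Cxcl12, a chemokine, had effects of -2.03 ± 0.24 and -2.96 ± 0.38. Its difference of 0.93 (adjusted p = 0.14) passed only with the replicate block (adjusted p = 0.0309). Snap25, a synaptic vesicle fusion protein, had -2.04 ± 0.34 and -3.68 ± 0.53, and its difference (adjusted p = 0.0652) passed without DMSO replicate 2 (0.0429) or 4OHT replicate 4 (0.0255). Il12rb1, an interleukin-12 receptor chain, Ddx60, an antiviral helicase, and A2m, alpha-2-macroglobulin, had reader effects of -2.22, -2.81 and -2.01 and writer effects of -2.03, -2.40 and -2.08. A2m rests partly on DMSO replicate 3, at 15.0 CPM against 3.86 to 4.34 in the others; without it the difference was 0.78 (adjusted p = 0.0364). Cxcl12 and A2m lie on chromosome 6, and Ddx60 and Il12rb1 on chromosome 8.

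DNA replication and cell cycle genes fell in both: 27 of 30 with the reader effect, 21 with the writer effect and 19 with both. The shares over all entries were 19.3%, 14.7% and 6.46%, in the same order. Medians were -0.62 and -0.43. The members differed in which loss moved them. Ccnb1, cyclin B1, fell alike (-0.68 ± 0.06 and -0.72 ± 0.09, difference adjusted p = 0.851). Mcm2, a subunit of the replicative helicase on chromosome 6, fell by 0.41 after 4OHT and by 1.09 in KO. Cdc6, a loading factor of that helicase, was at 44.9, 45.5, 46.9 and 49.4 CPM under DMSO and 19.1, 23.6, 21.8 and 17.4 after 4OHT, while WT (38.6 and 36.7) and KO (43.4 and 42.4) libraries differed by a writer effect of 0.19 ± 0.12 that did not pass. Ccne1, cyclin E1, had effects of -1.02 ± 0.12 and -0.33 ± 0.17, and its difference (adjusted p = 0.0176) did not pass without WT replicate 2 (adjusted p = 0.0638).

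Sterol synthesis genes fell in both, and further after reader loss. All 23 members tested fell with the reader effect and 17 of them also with the writer effect; 2 rose with the writer effect, a count of 0 without either WT library or KO replicate 2. Over all entries, 19.3% fell with the reader effect, 14.7% fell and 12.6% rose with the writer effect, and 6.46% fell in both. Medians of the list were -1.74 and -0.56, and the difference passed as lower in 19 members, against 11.6% of all entries, and as higher in 0. Hmgcs1, the cytosolic HMG-CoA synthase (ENSMUSG00000093930, chromosome 13, 119690379 to 119708260), was at 250, 318, 302 and 320 CPM under DMSO and at 72.9, 76.3, 62.8 and 61.7 after 4OHT. It was at 286 and 287 CPM in WT and at 191 and 172 in KO. The DMSO and WT libraries overlapped in level and the KO libraries stood between them and the 4OHT libraries. The effects were -2.12 ± 0.08 and -0.66 ± 0.11, with a difference of -1.46 ± 0.14 (adjusted p = 3.68e-07). Insig1, the sterol sensor that retains the SREBP factors, had -2.47 ± 0.12 and -0.54 ± 0.16. Idi1, isopentenyl diphosphate isomerase, fell by 2.22 and by 1.04. Sqle, squalene epoxidase, and Sc5d, a late desaturase of the pathway, were reader-only: reader effects of -1.72 and -1.22 stood against writer effects of 0.21 and 0.32.

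The sterol response element is written here as TCACNCCAC. On either strand it occurred in the 250 bases before the start of 1 of the 15 sterol genes with an entry (of 23), Hmgcs1, and of 1.23% of all genes. CCAAT, the letters bound by NF-Y, occurred in 15 of the 15 and in 37.5% of all genes. Start sites were counted and picked as for Ldha and Pgk1. The Hmgcs1 promoter is shown because it carries both, in capitals (chr13:119690101-119690350, plus strand, GRCm38.p6).
Hmgcs1: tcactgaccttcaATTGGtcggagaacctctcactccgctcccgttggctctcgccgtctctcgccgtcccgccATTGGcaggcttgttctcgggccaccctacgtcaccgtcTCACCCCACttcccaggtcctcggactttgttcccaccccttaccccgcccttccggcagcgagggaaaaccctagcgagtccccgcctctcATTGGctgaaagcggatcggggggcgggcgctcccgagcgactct

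Fatty acid synthesis and desaturase genes fell mainly with the reader effect: 16 of 19 fell with it and 7 with the writer effect, against 19.3% and 14.7% of all entries. The 9 differences that passed were lower, against 11.6% of all entries. The writer count was 4 without WT replicate 2 or KO replicate 2. Scd1, stearoyl-CoA desaturase 1 (ENSMUSG00000037071, chromosome 19, 44394455 to 44407879, minus strand), was at 100, 160, 170 and 162 CPM under DMSO and at 6.89, 11.2, 5.11 and 4.91 after 4OHT. It was at 129 and 132 CPM in WT and at 95 and 102 in KO. The reader effect was -4.38 ± 0.21, a 20.9-fold fall, and the writer effect of -0.41 ± 0.25 did not pass (adjusted p = 0.253). The difference was -3.98 ± 0.32 (adjusted p = 5.97e-08), which put Scd1 first among the reader-only lower genes. Its paralogue Scd2 had effects of -3.10 ± 0.11 and -0.43 ± 0.15, both passing. Fads2, the delta-6 desaturase, had -2.48 ± 0.10 and -0.12 ± 0.13, and Fasn, fatty acid synthase, -1.21 ± 0.08 and -0.24 ± 0.11.

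Targets of p53, the factor that halts the cell cycle or starts apoptosis under stress, rose after reader loss: 21 of 26 rose with the reader effect, 5 with the writer effect, and 21 differences passed as higher, against 21.4%, 12.6% and 13.7% of all entries. The writer count was 3 without either WT library or KO replicate 1. In the whole list, 16 were reader-only higher, against 5.40% of all entries. Medians were 0.90 and -0.03. Plk2, a polo-like kinase (ENSMUSG00000021701, chromosome 13, 110395046 to 110400844), was at 43.8, 36.8, 30.3 and 37.3 CPM under DMSO and at 134, 121, 127 and 149 after 4OHT. It was at 24.5 and 24.9 CPM in WT and at 30.9 and 20.2 in KO, where the groups overlapped. Cdkn1a, the cyclin-dependent kinase inhibitor p21, had effects of 1.08 ± 0.08 and 0.26 ± 0.11, with only the first passing. The death receptor gene Fas had 3.23 ± 0.35 and -0.26 ± 0.57, Perp, an apoptosis effector, 2.41 ± 0.17 and 0.47 ± 0.26, and Ccng1, cyclin G1, 1.22 ± 0.07 and -0.18 ± 0.09. Mdm2, the ubiquitin ligase that restrains p53, rose in both but by 1.85 ± 0.09 against 0.51 ± 0.12 (difference 1.34 ± 0.15, adjusted p = 2.60e-06).

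Among the other reader-only higher genes named by rule, the largest difference was in Adcy4, an adenylate cyclase, at 0.791, 0.879, 0.255 and 0.601 CPM under DMSO and 11.7, 7.47, 7.34 and 11.7 after 4OHT, against 0.821 and 0.813 in WT and 0.349 and 0.484 in KO. Wnt8a, a Wnt ligand of the primitive streak, had effects of 2.86 ± 0.20 and -0.95 ± 0.38. Pcsk2, a prohormone convertase, Ltb4r1, a leukotriene receptor, and Frrs1l, an AMPA receptor accessory protein, had differences of 4.04, 3.51 and 3.49. Each of these 3 lost its call without 1 WT library: Pcsk2 without replicate 1 (adjusted p = 0.26), Ltb4r1 without replicate 2 (0.455) and Frrs1l without replicate 1 (0.0807). Their WT levels were at or under 1.41 CPM. Neat1, the RNA scaffold of paraspeckles, was reader-only at 1.73 ± 0.08 against 0.20 ± 0.12, whereas Malat1, the RNA of nuclear speckles, rose in both by 0.38 and 0.28.

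After Scd1, the reader-only lower genes named by rule were Grm4, a metabotropic glutamate receptor (difference -3.27 ± 0.55), Trpm6, a magnesium channel (-3.15 ± 0.59), Gbp7, a guanylate-binding protein (-3.14 ± 0.64), Entpd2, an ecto-nucleotidase (-3.04 ± 0.62), and Lefty2, an inhibitor of Nodal signalling (-2.95 ± 0.24). Lefty2 was the most abundant of these 5: 40.8, 48.0, 60.9 and 59.9 CPM under DMSO became 6.55, 10.7, 10.4 and 7.52 after 4OHT. In WT it was at 94.4 and 85.4 CPM and in KO at 121 and 114, and the writer effect of 0.38 ± 0.18 did not pass (adjusted p = 0.138).

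**Figure D3:**
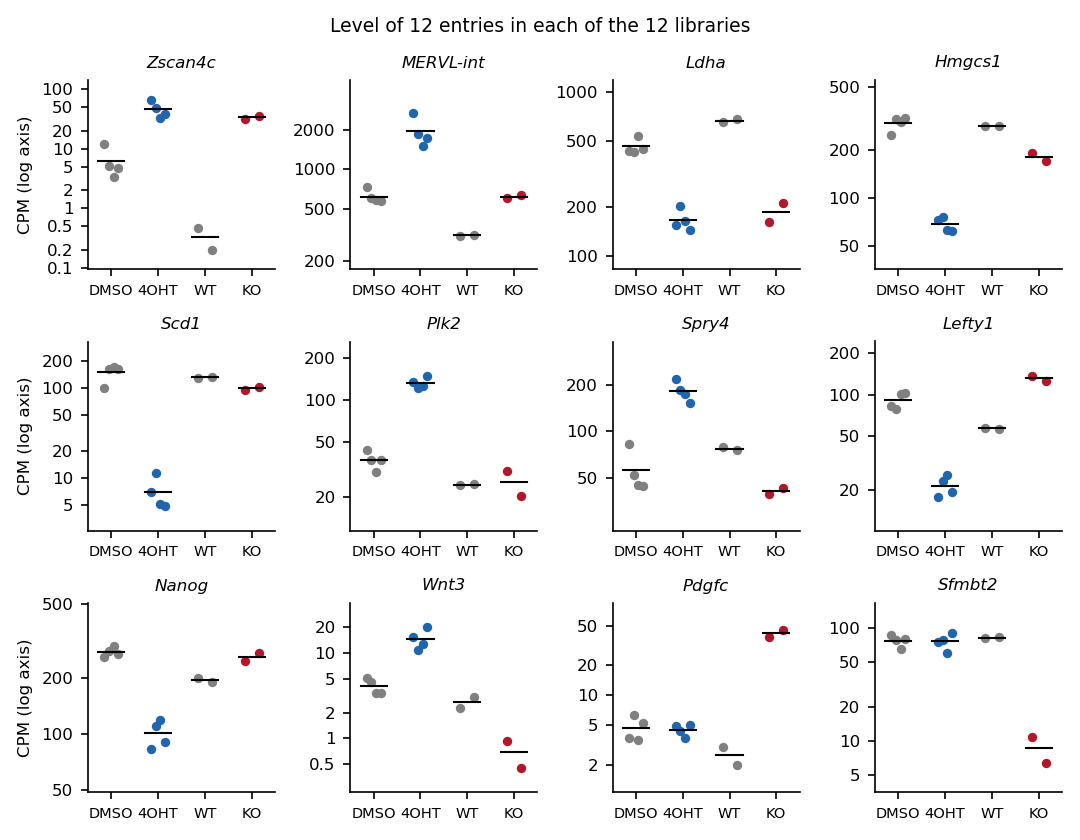
Level of 12 entries in CPM on a log axis, 1 point per library, with the group mean as a bar; DMSO and 4OHT are the Ythdc1 set (n = 4 each), WT and KO the Mettl3 set (n = 2 each). Zscan4c, MERVL-int, Ldha and Hmgcs1 moved in both sets, Scd1 and Plk2 after 4OHT alone, Spry4, Lefty1, Nanog and Wnt3 in different directions, and Pdgfc and Sfmbt2 in KO alone, by the tests given in the text.

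FGF and ERK target genes, which report the activity of the kinase pathway that drives exit from naive pluripotency, moved apart. Of 20 members, 14 rose and 2 fell with the reader effect, while 2 rose and 7 fell with the writer effect; the 2 became 0 without WT replicate 2 or KO replicate 1. The difference passed as higher in 13 and as lower in 1, against 13.7% and 11.6% of all entries. Medians of the list were 0.72 and -0.26. Of all entries, 21.4% rose and 19.3% fell with the reader effect, and 12.6% rose and 14.7% fell with the writer effect. Of the members, 5 were higher after reader loss and lower after writer loss, against 2.27% of all entries. Among them were the feedback inhibitors Spry4 and Spry2 and the transcription factor genes Etv5 and Fosl1. Spry4 was at 83.2, 51.9, 44.7 and 44.0 CPM under DMSO and at 222, 187, 175 and 153 after 4OHT, and at 79.4 and 75.2 in WT and 39.1 and 42.9 in KO. The DMSO and WT levels overlapped and the treated levels lay on either side of them. Its effects were 1.72 ± 0.15 and -0.92 ± 0.22. Spry2 had 0.81 and -1.59, Etv5 0.33 and -1.26, and Fosl1 2.74 and -0.96. Dusp4 and Dusp6, ERK phosphatases, and Etv4 were reader-only, with reader effects of 1.62, 1.02 and 1.74. Dusp4 lies on chromosome 8.

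Nodal pathway genes split by member. Nodal, the ligand, rose in both, from 27.5, 25.3, 26.5 and 27.0 to 50.7, 44.8, 46.0 and 46.9 CPM after 4OHT and from 15.9 and 16.8 to 42.6 and 36.9 CPM in KO. Lefty1, a secreted inhibitor and target of Nodal (ENSMUSG00000038793, chromosome 1, 180935022 to 180938400), went in different directions. It was at 82.5, 79.0, 101 and 102 CPM under DMSO and 18.0, 23.4, 25.7 and 19.5 after 4OHT, and at 57.4 and 56.7 in WT and 138 and 127 in KO. Its effects were -2.07 ± 0.11 and 1.21 ± 0.14, a difference of -3.29 ± 0.18 (adjusted p = 1.50e-09). Of the 15 members, 8 differences passed as lower and 2 as higher, against 11.6% and 13.7% of all entries. The higher count is near that share.

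Pluripotency genes did not move as a block. Pou5f1 and Sox2, the core factors, passed for neither effect nor for the difference (adjusted p of 0.2 and 0.151); the Sox2 difference passed without KO replicate 2 (adjusted p = 0.0475). Nanog (chromosome 6, 122707489 to 122714633) fell from 258, 279, 297 and 271 to 82.9, 111, 120 and 90.2 CPM after 4OHT and rose from 201 and 191 to 246 and 273 CPM in KO, on a chromosome whose median writer effect was -0.53. Its effects were -1.45 ± 0.09 and 0.41 ± 0.13. Klf2, a naive factor on chromosome 8, had -0.57 ± 0.09 and 1.12 ± 0.13. Prdm14, which represses the primed state, and Tcl1, a kinase coactivator, were reader-only lower at -1.54 and -1.48. Tbx3, a T-box factor of naive cells, rose in both, by 0.64 and 1.46. Of all entries, 21.4% rose and 19.3% fell with the reader effect, and 12.6% rose and 14.7% fell with the writer effect. In the whole list of 26, 7 rose and 12 fell with the reader effect and 7 rose and 9 fell with the writer effect. The 7 became 4 without either WT library or with chromosomes 6 and 8 left out.

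The largest opposite genes by rule, higher after reader loss and lower after writer loss, included Wnt3, the ligand that starts the primitive streak (chromosome 11, 103774150 to 103817957). It was at 5.08, 4.61, 3.36 and 3.38 CPM under DMSO and 15.5, 10.9, 12.7 and 20 after 4OHT, and at 2.27 and 3.05 in WT and 0.941 and 0.450 in KO. Its effects were 1.84 ± 0.20 and -1.94 ± 0.39. Ryr3, a calcium release channel, had 1.81 and -1.97, Fgfbp1, a carrier of FGF ligands, 1.70 and -2.44, and Pou4f2, a homeobox factor on chromosome 8, 1.61 and -2.17. Olfr419, an olfactory receptor gene, rose by 4.08 ± 0.54 after 4OHT and held no count in KO, which is at least 5.57-fold lower than in WT against 3 counts over the group. Lef1, a nuclear effector of Wnt signalling, had 0.96 ± 0.17 and -1.47 ± 0.28, and Dnmt3l, a cofactor of DNA methylation, 1.39 ± 0.16 and -1.05 ± 0.22.

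In the other direction, Enpp2, the lysophospholipase autotaxin, was at 6.57, 9.97, 8.09 and 9.14 CPM under DMSO and 1.06, 1.64, 1.98 and 0.629 after 4OHT, and at 4.06 and 3.52 in WT and 22.7 and 12.8 in KO. Heph, a copper-dependent iron oxidase on the X chromosome, had effects of -2.10 ± 0.57 and 4.36 ± 0.66. Kcnj12, a potassium channel, Pxylp1, a glycosaminoglycan xylose phosphatase, Grik4, a kainate receptor subunit, and Kank4, an adaptor of the actin cytoskeleton, had reader effects of -1.88, -1.87, -1.66 and -2.05 and writer effects of 2.53, 1.61, 1.55 and 1.52.

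Writer-only genes passed for the writer effect and the difference but not after 4OHT. Pdgfc, a platelet-derived growth factor (ENSMUSG00000028019, chromosome 3, 81036416 to 81214040), was at 3.67, 6.33, 3.56 and 5.30 CPM under DMSO and 4.84, 4.35, 3.72 and 5.00 after 4OHT, and at 3.0 and 2.0 in WT and 38.4 and 45.1 in KO. Only the KO libraries were above 6.33 CPM. The effects were -0.08 ± 0.17 and 4.08 ± 0.27. Fat2, a giant cadherin, was at 5.71 and 6.98 CPM in WT and 107 and 150 in KO (writer effect 4.34 ± 0.42), with a reader effect of -0.16 ± 0.35. Cadps2, a secretory vesicle priming factor on chromosome 6, Rassf9, an endosomal protein, and Kdm5d, the Y-linked histone demethylase described above, had writer effects of 3.74, 4.50 and 4.83. Osr2, a zinc finger factor, held no count in WT and was at 0.384 and 0.692 CPM in KO, at least 9.89-fold higher against 3 counts over the group. Both KO levels lie under the mean of 1 CPM over the 12 libraries that naming required. The average level of Osr2 was therefore higher in the Ythdc1 set than in KO.

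Of the writer-only lower genes, Sfmbt2, a Polycomb protein gene that is imprinted in the placenta (ENSMUSG00000061186, chromosome 2, 10370510 to 10595253), was at 86.2, 77.2, 65.2 and 79.4 CPM under DMSO and 74.2, 77.9, 60.0 and 90.6 after 4OHT. It was at 80.4 and 83.3 CPM in WT and at 10.7 and 6.37 in KO. The other 10 libraries spanned 60.0 to 90.6 CPM, and the KO libraries lay 9.57-fold below WT by the fitted writer effect. Pla2g1b, a secreted phospholipase, fell from 34.3 and 29.4 to 0.767 and 1.90 CPM in KO (writer effect -4.57 ± 0.28), with a reader effect of -0.38 ± 0.15 that did not pass (adjusted p = 0.0572). Platr15, a noncoding RNA of pluripotent cells, and Actc1, cardiac actin, had writer effects of -4.55 and -3.73. Hydin, a ciliary protein, and Plvap, an endothelial diaphragm protein, had -4.03 and -3.49; both lie on chromosome 8, and these falls exceed that chromosome's median of -0.59.

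Imprinted genes, which are read from 1 parental copy, took several directions: of 23 members, 6 were writer-only lower and 0 writer-only higher, 4 were opposite each way, 2 were reader-only lower and 2 rose in both. Of all entries, 3.87% were writer-only lower, 3.45% writer-only higher, and 2.27% and 2.30% opposite in each way. A further 4.33% were reader-only lower and 4.96% rose in both. The noncoding RNAs Meg3 and Rian of the same cluster had writer effects of -0.97 ± 0.21 and -0.97 ± 0.18 and reader effects of 0.18 and 0.12. Peg10, a retrotransposon-derived gene on chromosome 6, fell from 1240 and 1232 to 536 and 279 CPM in KO. Its difference of 1.26 ± 0.32 (adjusted p = 0.00679) did not pass without KO replicate 2 (adjusted p = 0.0554) or under the DESeq2 Wald test (0.0509). H19 had effects of -0.47 ± 0.15 and 1.14 ± 0.21.

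The m6A machinery itself differed between the losses. Of 21 members, 0 rose and 11 fell with the reader effect, while 8 rose and 5 fell with the writer effect, and 11 differences passed as lower and 1 as higher. Of all entries, 19.3% fell with the reader effect, 12.6% rose and 14.7% fell with the writer effect, and 11.6% had a lower difference. The 5 that fell in KO became 1 without WT replicate 1 or KO replicate 1, 2 without WT replicate 2, 3 without DMSO replicate 2 and 3 with the authors' factors. The writer subunits Wtap and Virma were writer-only higher. Wtap was at 71.5, 72.4, 69.5 and 67.4 CPM under DMSO and 75.4, 77.9, 79.0 and 68.8 after 4OHT, and at 51.4 and 53.8 in WT and 100 and 107 in KO, a writer effect of 0.98 ± 0.09. Virma had a writer effect of 0.65 ± 0.09. The cytoplasmic readers Ythdf1 and Ythdf2 rose in KO by 0.73 ± 0.10 and 1.20 ± 0.09, and Ythdf2 fell by 0.33 ± 0.07 after 4OHT. Mettl14, the partner of Mettl3, fell in both (-0.41 ± 0.09 and -0.44 ± 0.13).

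**Figure D4:**
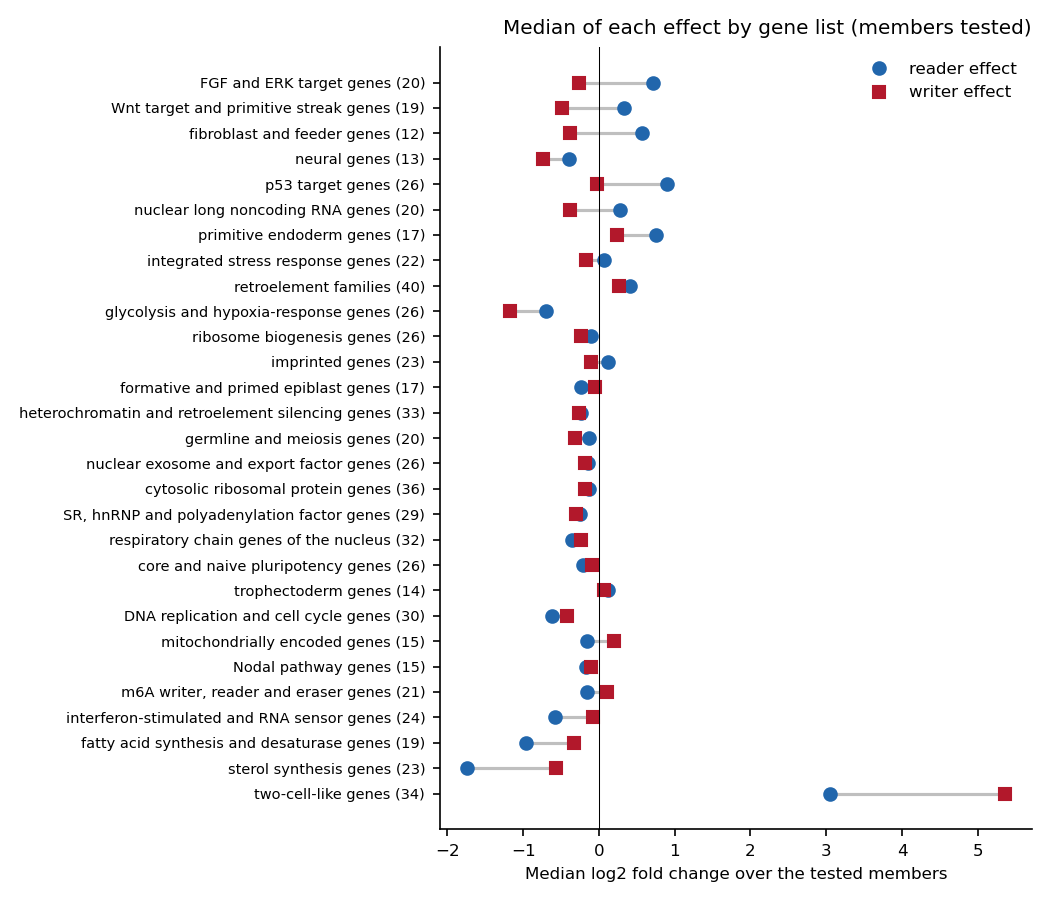
Median log2 fold change over the tested members of each gene list (number tested in brackets), for the reader effect (circles) and the writer effect (squares), ordered by the median difference. Sterol synthesis genes lie at -1.74 and -0.56, p53 target genes at 0.90 and -0.03, FGF and ERK target genes at 0.72 and -0.26, and two-cell-like genes at 3.05 and 5.36.

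Other lists are given by counts, beside 21.4% higher and 19.3% lower of all entries for the reader effect and 12.6% and 14.7% for the writer effect. A share of 6.46% of all entries fell in both. Of 29 SR, hnRNP and polyadenylation factor genes, 18 fell with the reader effect and 17 with the writer effect (medians -0.26 and -0.30), 9 of them with both. Of 26 nuclear exosome and export factor genes, 12 and 13 fell (-0.14 and -0.19), 8 of them with both. That writer count was 5 without WT replicate 1 and 7 without either KO library. The 33 genes of heterochromatin and retroelement silencing counted 4 higher and 20 lower with the reader effect, against 6 higher and 16 lower with the writer effect. The 6 became 3 without either WT library, without KO replicate 2 or with chromosomes 6 and 8 left out. Trim28, the corepressor of retroelement silencing, fell by 0.34 and by 0.46, while Setdb1, the histone methyltransferase it recruits, was writer-only higher at 0.61 ± 0.08. Nuclear-encoded respiratory chain genes fell in 20 and 15 of 32, and cytosolic ribosomal protein genes in 18 and 17 of 36. The ribosomal writer count was 6 without WT replicate 1, 8 without WT replicate 2 or KO replicate 2, and 8 with the sets fitted apart; its reader count was 7 with Ythdc1 libraries 1 and 2 only. Primitive endoderm genes rose in 12 and 7 of 17; the 7 became 4 without KO replicate 1 or with chromosomes 6 and 8 left out, and the 12 became 7 with Ythdc1 libraries 3 and 4 only. Neural genes fell in 4 and 8 of 13, and the 8 became 5 without either WT library or KO replicate 2. The summed primitive endoderm markers given above were higher in both treated groups; the summed neural markers were lower in KO, while under 4OHT and DMSO their ranges overlapped.

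Repeat families carried a larger share of the counts after reader loss. The share was 23.0% ± 1.18 (SD, n = 4) under DMSO and 27.9% ± 0.734 (SD, n = 4) after 4OHT, and 27.0% ± 0.171 (SD, n = 2) in WT and 27.8% ± 1.33 (SD, n = 2) in KO. The reader effect was 4.93 percentage points (exact permutation test, two-sided, p = 0.0286, the smallest that 70 arrangements allow). The writer effect was 0.879 points, where 6 arrangements allow no p under 0.333 (exact p = 0.667). The difference of 4.05 points did not pass (exact permutation over 420 arrangements, p = 0.0571). Labels were shuffled within each set, so this p refers to no effect in either set. It cannot tell whether the reader and writer effects differ from each other. Without KO replicate 2, the library with the highest share in the Mettl3 set, the difference was 4.995 points. Of the 1045 families tested, 637 rose and 8 fell with the reader effect, 90 rose and 31 fell with the writer effect, and the difference was higher in 288 and lower in 12. Their classes were 75 shared higher, 251 reader-only higher, 21 higher after reader loss and lower in KO, 7 writer-only higher and 5 writer-only lower. Of all entries, 21.4% rose and 19.3% fell with the reader effect, and 12.6% rose and 14.7% fell with the writer effect. Both writer counts of the families lie below these shares. The difference was higher in 13.7% and lower in 11.6% of all entries. The 5 classes held 4.96%, 5.40%, 2.27%, 3.45% and 3.87% of all entries, in the same order.

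Among 40 listed retroelement families, 37 rose and 1 fell with the reader effect and 19 rose and 5 fell with the writer effect. Of these families 18 rose in both. Of all entries, 21.4% rose and 19.3% fell with the reader effect, 12.6% rose and 14.7% fell with the writer effect, and 4.96% rose in both. The 5 became 3 without WT replicate 1 or KO replicate 2 and 10 with chromosomes 6 and 8 left out. The young L1Md_T family rose alike in both, from 3163, 3122, 2866 and 2687 to 4911, 4389, 4307 and 4080 CPM after 4OHT and from 1763 and 1758 to 2505 and 2805 CPM in KO (0.58 ± 0.06 and 0.59 ± 0.09). IAPEz-int had 0.36 ± 0.06 and 0.50 ± 0.08. The early transposon families went in different directions: MMETn-int had 0.53 ± 0.04 and -0.80 ± 0.06, and ETnERV-int 0.48 ± 0.05 and -0.79 ± 0.06, with no overlap between either pair of groups; over all entries tested the reader groups did not overlap for 37.5% and the writer groups, with 2 libraries each, for 63%. The SINE families B1_Mm and B2_Mm1a were reader-only higher by small amounts (0.17 ± 0.04 and 0.18 ± 0.05), and both differences lost their call without WT replicate 1 (adjusted p of 0.0659 and 0.0611). GSAT_MM, the major satellite of pericentric heterochromatin, had the largest difference among the shared families named by rule. It was at 14.1, 16.5, 9.16 and 8.38 CPM under DMSO and at 163, 117, 152 and 104 after 4OHT, and at 8.64 and 4.57 in WT and 14.1 and 15.0 in KO. Its reader effect of 3.47 ± 0.20 exceeded its writer effect of 1.15 ± 0.30 by 2.32 ± 0.36 (adjusted p = 7.93e-05). Of the families named by rule in the opposite class, LTR88c had effects of 0.74 and -1.15 and RLTR13G 0.60 and -0.95. The endogenous retrovirus family ERVB4_1B-I_MM-int was writer-only higher (0.37 and 1.75); leaving out 4OHT replicate 2, either WT library or KO replicate 1 ended the call of its difference, with adjusted p of 0.0541, 0.0917, 0.0913 and 0.312. It also ended under the DESeq2 Wald test (adjusted p = 0.0945) and with Ythdc1 libraries 1 and 2 only (0.0525).

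The classes were then read in 8 libraries that took no part in defining them. These were Ythdc1-cKO cells with a Dux-KO or Dux-Het label, treated with 4OHT or DMSO, 2 libraries for each combination. They were grouped by their titles, which are also the names of the count columns; the genotype and treatment fields of these samples disagree with the titles. The 4OHT effect in these libraries, averaged over both genotypes, passed as higher in 14.7% and as lower in 12.6% of 27508 entries. Of 1507 reader-only higher entries tested there, 921 (61.1%) passed as higher and 8 as lower, and of 1209 reader-only lower entries 640 (52.9%) passed as lower and 4 as higher. The shared classes passed in their own direction in 52.8% (higher) and 57.8% (lower), and the opposite classes passed in the reader's direction in 49.6% and 48.2%. Writer-only entries passed in either direction in 13.8% (higher class) and 14.4% (lower class), against 27.3% of all entries. These classes were chosen for not passing the 4OHT effect in the first set, so a lower share can follow from that choice. Taken alone, Dux-Het libraries called 435 and 305 of the reader-only entries in their direction and Dux-KO libraries 470 and 314. Over all entries these single-genotype contrasts passed as higher and lower in 5.48% and 4.62% (Dux-Het) and in 5.93% and 4.78% (Dux-KO). The 4OHT effect there repeats the reader contrast, so these values say nothing on the writer effect in other cells.

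**Figure D5:**
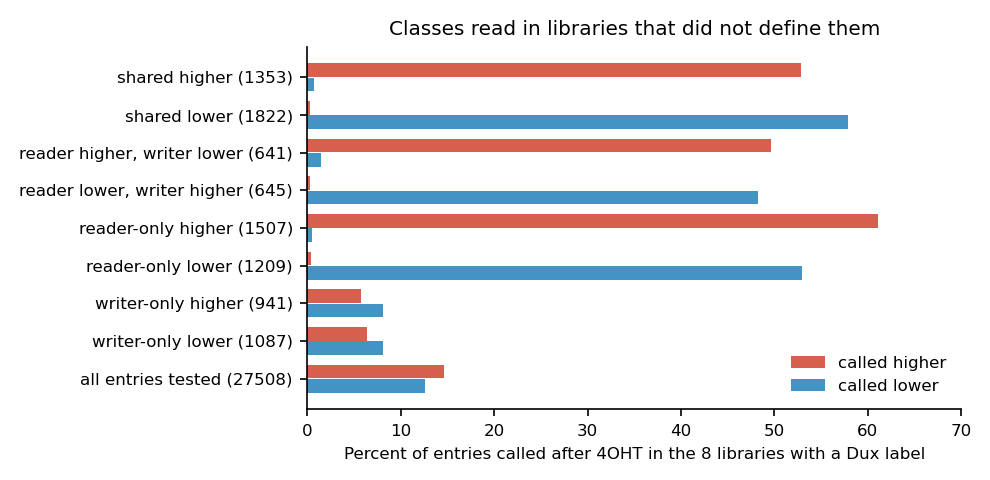
Percent of the entries of each class that passed as higher or lower after 4OHT in the 8 libraries with a Dux label (number tested in brackets), with all entries tested as the last row. Reader-only and shared classes lie between 52.8% and 61.1% in their own direction, and both writer-only classes at 8.10% or less in each direction.

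Transcript structure was described without a test. GGACT, the commonest form of the m6A motif, occurred at a median of 1.04 per kb in the longest transcript (GENCODE vM21) over 16498 coding genes tested. Over the 8 shared, opposite and one-sided classes the medians ran from 0.987 per kb in genes lower in both to 1.13 per kb in genes lower after reader loss and higher in KO. Median transcript length ran from 3162 bases in genes lower in both to 4248 bases in that opposite class, against 3220 over all coding genes. Median exon number ran from 7 to 10 over these classes, and genes without GGACT made up 2.67% to 9.80%, against 7 exons and 7.90% over all coding genes. No methylation was measured in these libraries, and a motif count is a description of sequence.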

How the data were processed

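Whole-number counts per gene and repeat family (44749 entries) were used as deposited. Per the submitters' processing notes the build was mm10 and the tools were STAR 2.7, RSEM, Bowtie2 and bcl2fastq, without saying which of them made the counts. The deposited normalized signal equals those counts divided by 1 factor per library and was used only for an alternative scaling. Libraries were grouped by title and column name. Counts were fitted with edgeR 4.0.16 in R 4.3.3 (limma 3.58.1; filterByExpr, TMM, glmQLFit, glmQLFTest), with Benjamini-Hochberg adjustment; standard errors were the absolute log2 fold change over the root of F. The scripts were tested on simulated data. Alternatives included DESeq2 1.42.0, other scalings and filters, left-out libraries and a replicate block. Same-numbered Ythdc1 libraries deviated together (correlations 0.34, 0.10, 0.36 and 0.34), so the replicate block took their numbers to pair them. This comes from the data, not the labels. The main fit, with its classes and p-values, did not use the pairing. The permutation test of the repeat share did not use it either. The Mettl3 pair was at 0.07. No pass mark was set for these correlations, and the replicate block paired the Mettl3 columns by number as well.

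Named genes were, per class, the 6 genes and 3 repeat families with the largest effects at a mean of at least 1 CPM and groups that did not overlap, plus list members and genes always named. Members and lists were chosen with earlier results of these data known; the promoter motifs and the fit without chromosomes 6 and 8 were chosen after seeing the data. Genome positions and transcripts are from GENCODE vM21, promoters from RefSeq. In total 2 libraries with no Dux label or replicate number were not used. Some genes that the naming rule selects are not reported here.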

Additional observations from a re-analysis of the deposited data

Results flagged for a closer look

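Of 274 groups of 4 libraries tested over the named entries (Dixon's test at the 95% level), 15 held a library far from the other 3; chance alone marks about 1 in 20 groups. In the DMSO group, A2m was at 15.04 CPM in replicate 3 against 3.856 to 4.34 in the others, Grik4 at 2.265 in replicate 3 against 1.458 to 1.501, and Snap25 at 2.617 in replicate 2 against 1.486 to 1.629. In replicate 1 of the same group, Frrs1l was at 1.606 CPM against 0.2397 to 0.3821, Lrp1b at 0.4553 against 0.1018 to 0.1199, Spry2 at 61.62 against 38.21 to 41.53, and Scd1 was lowest at 100.2 against 160.4 to 170.3. In replicate 4, ERVB4_1B-I_MM-int was at 73.75 CPM against 26.5 to 30.94, Entpd2 at 2.293 against 0.7429 to 0.9589, and Peg10 at 2403 against 1548 to 1629.

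In the 4OHT group, Spry2 was at 89.37 CPM in replicate 1 against 75.18 to 77.55, and Plvap at 8.322 in replicate 1 against 4.477 to 4.846. In replicate 3, Fat2 was at 3.644 CPM against 1.352 to 1.699, ETnERV-int at 3970 against 3630 to 3666, and RLTR13G at 1882 against 1701 to 1720. The WT and KO groups hold 2 libraries each and were not tested this way.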

How the results depend on the processing

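Among the named entries, no difference of effects that passed changed sign under an alternative run; some that did not pass did. The balance of higher and lower differences turned under 4 alternatives, as given above. With the Ythdc1 libraries numbered 1 and 2 alone, 7346 entries passed for the reader effect (11503 with all 4) and 1777 were reader-only (2750). Leaving out 1 library at a time gave 2543 to 3767 higher and 2484 to 3551 lower differences, 10204 to 11797 reader and 4919 to 7943 writer calls, 2161 to 3255 shared, 839 to 1340 opposite, 2206 to 2708 reader-only and 1363 to 2222 writer-only entries; the lowest writer, opposite and writer-only counts came without WT replicate 1. An interval within 0.58 on the log2 scale in place of 1 left 154 of 463 reader-only and 404 of 669 writer-only entries of fixed size. Dux-Het libraries alone called 435 and 305 of the reader-only higher and lower entries, and Dux-KO libraries alone 470 and 314, against 921 and 640 together. The difference in repeat share ran from 3.11 to 5.00 points without 1 library, and was largest without KO replicate 2.

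With the replicate block, which pairs columns by number in both sets, 4303 differences were higher and 3611 lower, and 11970 reader and 8259 writer calls passed. Of the named entries, it changed the calls of Ldha and Cxcl12 and of no other. Over 136 named entries and 3112 values under alternatives, 3039 kept their side of the threshold, 66 lost their call and 7 gained one. Of the values that kept their side, 136 belong to the sets fitted apart. That alternative took its difference of effects from the main fit, so these values could not change. DESeq2 and other scalings, and leaving out chromosomes 6 and 8, kept the counts of reader and writer calls, of differences and of classes over all entries within 1.5 times. Counts within gene lists moved further in places, and not every such move is given beside its list. With Ythdc1 libraries 1 and 2 only, 7 nuclear exosome and export factor genes fell with the reader effect, against 12 in the main fit. Of the m6A machinery genes 7 fell there, against 11. With the sets fitted apart, 2 genes of the m6A machinery fell with the writer effect, against 5. Totals of 25.0 to 28.7 (1e6 counts) and 2 libraries a group limit the writer effect, whose median standard error was 0.29 against 0.20 for the reader effect.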
